A study of Mus musculus with 6 samples.

Results

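The 119 genes described here had at least 2 times the FPKM in *Jmjd6*-/- as in wild-type (WT) fetal thymic stroma after stimulation with RANKL. FPKM counts the sequenced fragments of a gene in relation to the length of its exons and to the mapped fragments of the library. The genes were chosen by their measured values. The smaller value of the 2 *Jmjd6*-/- RANKL libraries had to reach 1 FPKM and to be at least 2 times the larger value of the 2 WT RANKL libraries. This selected 119 of 22513 entries, or 0.969% of the 12287 entries that reach 1 FPKM in both *Jmjd6*-/- RANKL libraries. The mirrored rule, with the genotypes exchanged, selected 331 of 12417 entries (2.67%). Since the RANKL libraries made the choice, differences between genotypes under RANKL are given as a description of the genes and carry no test.

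The stroma came from thymus lobes of C57BL/6 mouse fetuses, either WT or homozygous for the null allele of *Jmjd6*, which encodes a nuclear lysyl hydroxylase that acts on splicing factors. The deletion is present in every cell of the lobe, epithelial or not. All lobes were cultured for 4 days with 2-DG (deoxyguanosine), which removes blood-forming cells, and then kept unstimulated (1 library per genotype) or stimulated for 4 days with RANKL (2 libraries per genotype). The sample labels call the repeated libraries technical duplicates and the study calls them samples. The Y-linked genes given below differed between the 2 *Jmjd6*-/- RANKL libraries, so these did not hold the same mix of embryos. For the WT pair the spread may be technical. RANKL is the ligand that matures medullary thymic epithelial cells (mTECs) and switches on *Aire*.

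*Jmjd6* transcripts fitted the genotype labels, at 26.3 to 32.5 FPKM in the 3 WT and 1.32 to 1.96 FPKM in the 3 *Jmjd6*-/- libraries, and *Aire* fitted the stimulation labels, at no more than 0.473 FPKM without and at least 67.1 FPKM with RANKL. Thymic epithelial markers were present in all libraries, with *Foxn1*, the master regulator of thymic epithelium, between 80.8 and 117 FPKM. The estimated depth ran from 15800000 to 31100000 fragments per library. The WT RANKL libraries correlated at r = 0.973 across 12587 genes on the log2 scale and the *Jmjd6*-/- RANKL libraries at r = 0.996. Libraries also differed in the sex of the embryos, with Y-linked genes summing to 0.121 FPKM in the unstimulated *Jmjd6*-/- library, 73.7 and 16.4 FPKM in the *Jmjd6*-/- RANKL libraries, and 41.0 to 78.3 FPKM in WT. No Y-linked gene is among the 119.

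Skin keratinocytes end their life as cornified cells. They exchange basal keratins for others, and small proline-rich (SPRR) proteins, involucrin and late cornified envelope (LCE) proteins are cross-linked by transglutaminases into an envelope beneath the membrane, while ceramides seal the space between cells. Many of the envelope genes lie side by side in the epidermal differentiation complex. Epithelial cells of the thymic medulla can follow a related path late in their life, when they form the keratinized whorls known as Hassall's corpuscles.

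Under RANKL the largest group among the 119 genes was that of the cornified envelope. Of 37 genes of a cornified envelope list that reached 1 FPKM in a library, 24 were among the 119 and none met the mirrored rule. Over all 13414 such genes 119 and 331 did, so none of 37 is close to the latter share. A list of keratins, not all of them epidermal, gave 7 of 22. Skin proteases and their inhibitors gave 5 of 14, and desmosomes with gap junctions 3 of 15. These 4 lists held 39 of the 119 genes. In 35 of the 37 cornified envelope genes both *Jmjd6*-/- RANKL libraries lay above both WT libraries, which the rule required of the 24. The median log2 ratio of the 37 was 2.38, and that of the 13 not among the 119 was 1.47. Over all 13414 genes that reached 1 FPKM in a library, 3537 had this order and the median was 0.03. Lists of p53 targets (22 genes), stress responses (24), mTECs (13) and cortical thymic epithelial cells (12) held none, which at 119 of 13414 genes is close to the share over all genes. The lists were written with earlier results of these libraries known and are not independent of the choice.

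**Figure D1:**
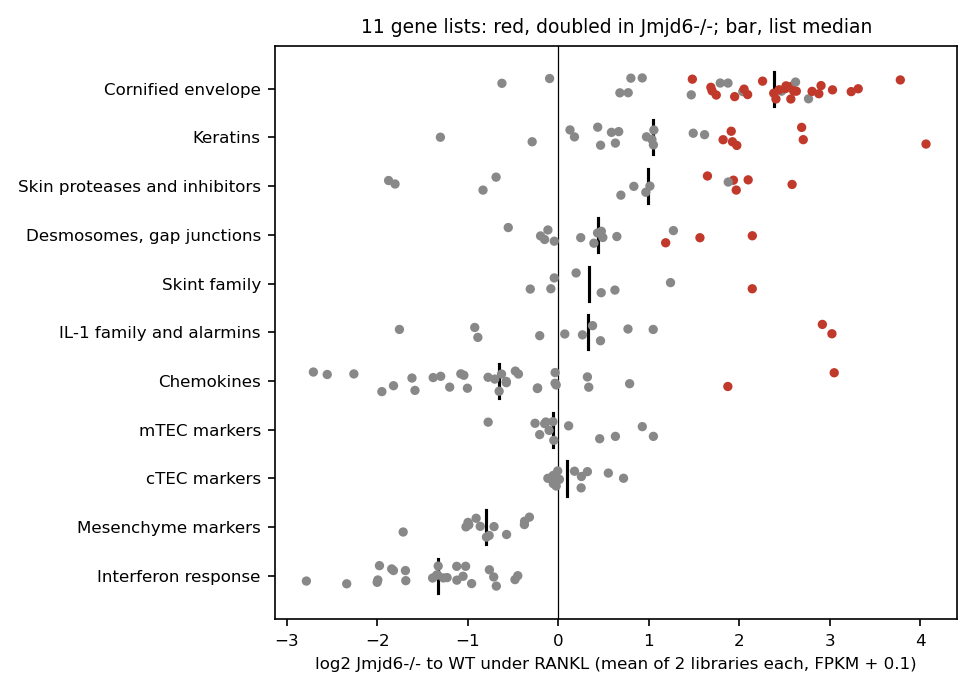
Log2 ratio of *Jmjd6*-/- to WT stroma under RANKL (x axis, mean of 2 libraries per genotype with 0.1 added to FPKM) for the genes of 11 lists (y axis), each point a gene with at least 1 FPKM in a library, red where it is among the 119, and a bar at the list's median. The cornified envelope list, of whose 37 genes the rule chose 24 by these values, has its median at 2.38 and the interferon list at -1.33.

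Sequences upstream of the transcription start are printed for 6 of the genes described below, to show where 2 short motifs lie. All 6 stretches hold TATAAA, and those of *Sprr1a*, *Sprr1b* and *Ivl* also hold TGANTCA. These 6 genes were picked by hand, so their matches do not stand for the 119. RefSeq promoters of GRCm38.p6 could be matched to 81 of the 119 genes. TGANTCA, with any base at N, is a looser form of the core recognised by AP-1 factors. In the 250 bases before the start it was found on either strand in 19 of the 81 genes (23.5%). The share was 4.13% among the 9326 promoters of genes with 1 FPKM in a *Jmjd6*-/- RANKL library and 6.28% among all 16087 promoters. The letters TATAAA of the TATA box were found on the plus strand in 18 (22.2%), against 3.90% and 7.86%. TTGCNNAA, a C/EBP-type sequence, was found in 16 (19.8%, against 7.32% and 8.87%) and CCACACCC in 5 (6.17%, against 3.61% and 3.41%), both on either strand. Duplicated genes share promoter sequence, and a match shows only the letters. Below, 150 bases before the start are written 5′ to 3′ on the gene's strand, in lower case with TGANTCA and TATAAA in capitals.
Sprr1a (chr3:92485882-92486031, minus strand): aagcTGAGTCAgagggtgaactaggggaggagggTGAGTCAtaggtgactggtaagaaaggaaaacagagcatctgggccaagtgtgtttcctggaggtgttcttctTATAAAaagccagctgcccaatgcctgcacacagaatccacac
Sprr1b (chr3:92438780-92438929, minus strand): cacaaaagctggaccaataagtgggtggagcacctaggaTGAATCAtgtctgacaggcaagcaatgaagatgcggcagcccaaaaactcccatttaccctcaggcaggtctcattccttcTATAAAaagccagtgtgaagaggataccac
Ivl (chr3:92573736-92573885, minus strand): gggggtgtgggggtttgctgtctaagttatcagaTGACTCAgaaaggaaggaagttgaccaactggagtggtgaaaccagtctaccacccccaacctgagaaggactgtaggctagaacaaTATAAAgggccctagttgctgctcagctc
Sprr2f (chr3:92365037-92365186, plus strand): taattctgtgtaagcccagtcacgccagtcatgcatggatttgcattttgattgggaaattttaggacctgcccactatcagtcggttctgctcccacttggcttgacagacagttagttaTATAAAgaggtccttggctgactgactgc
Sprr2h (chr3:92385535-92385684, plus strand): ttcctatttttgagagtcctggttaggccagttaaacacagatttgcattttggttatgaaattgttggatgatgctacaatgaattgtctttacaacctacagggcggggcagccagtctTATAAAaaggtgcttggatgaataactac
Ppbp (chr5:90768368-90768517, plus strand): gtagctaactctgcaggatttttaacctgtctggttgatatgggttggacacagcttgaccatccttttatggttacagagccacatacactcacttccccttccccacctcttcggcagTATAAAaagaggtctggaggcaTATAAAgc

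*Sprr1a*, encoding an SPRR envelope precursor (chromosome 3, 92483954 to 92485881 of mm10), had 51.4 and 96.8 FPKM in the WT and 384 and 460 FPKM in the *Jmjd6*-/- RANKL libraries. Without RANKL it had 20.8 FPKM in WT and 99.5 FPKM in *Jmjd6*-/- stroma, so the unstimulated *Jmjd6*-/- library stood above both stimulated WT libraries. Its mean under RANKL was 74.1 ± 32.1 FPKM (SD, n = 2) in WT and 422 ± 53.8 FPKM (SD, n = 2) in *Jmjd6*-/- stroma, a fold of 5.96. Folds here and below are ratios of geometric means after 0.1 was added to each FPKM, which understates the fold of low genes. *Sprr1b* followed the same order at a lower level, with 2.01 and 2.41 against 14.4 and 19.6 FPKM under RANKL, and 0.818 against 3.23 FPKM without it.

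*Sprr2f* had 5.24 and 9.51 FPKM in WT and 40.3 and 41.1 FPKM in *Jmjd6*-/- RANKL libraries. Without RANKL it had 0.306 and 1.94 FPKM. *Sprr2h* had 0.306 and 0.746 against 5.18 and 6.33 FPKM under RANKL, and unlike *Sprr2f* it was close in the unstimulated libraries, at 0.348 FPKM in WT and 0.572 FPKM in *Jmjd6*-/- stroma. In all, 9 of the 12 entries of the family that reached 1 FPKM were among the 119. Members of the *Sprr2* group are near-identical copies, so how the fragments were divided among them is uncertain. Summed over the 15 *Sprr* entries, with *Sprr1a* giving most of the sum, the level came to 24.5 FPKM in unstimulated WT, 63.4 and 123 FPKM in WT with RANKL, 110 FPKM in unstimulated *Jmjd6*-/- stroma and 494 and 570 FPKM in *Jmjd6*-/- stroma with RANKL. Both *Jmjd6*-/- RANKL libraries stood above the other 4.

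*Ivl*, encoding involucrin, the scaffold of the envelope, had 0.393 and 0.654 FPKM in WT and 3.22 and 3.56 FPKM in *Jmjd6*-/- RANKL libraries, with 0.392 and 1.66 FPKM in the unstimulated ones. *Tgm1*, the cross-linking transglutaminase, had 1.12 and 1.97 against 4.38 and 4.27 FPKM. *Asprv1*, a protease that processes filaggrin precursors, had 7.03 and 8.13 against 49.9 and 57.1 FPKM. Without RANKL, *Asprv1* had 6.49 FPKM in WT and 37.2 FPKM in *Jmjd6*-/- stroma, and *Tgm1* had 1.83 and 4.77 FPKM. *Lce3e* is listed at 0 in both WT RANKL libraries and had 1.21 and 1.34 FPKM in *Jmjd6*-/- stroma. With 3 fragments allowed for a 0 in each WT library, it was at least 3.96-fold higher, a bound that covers counting error only.

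*Lor*, encoding loricrin, a main protein of the mature envelope, had 0.580 and 1.12 FPKM in WT and 1.55 and 1.71 FPKM in *Jmjd6*-/- RANKL libraries, with 0.383 and 1.12 FPKM in the unstimulated ones, and it is not among the 119. *Krt1*, a suprabasal keratin, stayed at or below 1.49 FPKM and *Krt10*, its partner, at or below 4.19 FPKM. Of the cornified envelope list, 13 genes with 1 FPKM in a library were not among the 119, and their median log2 ratio was 1.47 under RANKL and 0.91 without it.

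The selected keratins included *Krt6a*, *Krt6b* and *Krt16*, which stressed and wounded epidermis switches on. *Krt6b* (chromosome 15, 101676023 to 101680289) had the largest fold of the 119 genes, 16.7, with 1.28 and 4.37 FPKM in WT and 39.8 and 43.0 FPKM in *Jmjd6*-/- RANKL libraries. The unstimulated libraries had 2.14 FPKM in WT and 16.4 FPKM in *Jmjd6*-/- stroma, a fold of 7.40. *Krt6a*, its neighbour and near copy, had 18.6 and 36.5 against 162 and 180 FPKM, and 41.9 against 143 FPKM without RANKL. How shared fragments were split between these 2 copies is uncertain. Their summed level was 19.9 and 40.8 FPKM in WT and 202 and 223 FPKM in *Jmjd6*-/- RANKL libraries.

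*Krt16*, which pairs with keratin 6, had 4.68 and 16.1 against 51.5 and 62.3 FPKM, and 2.05 against 11.7 FPKM without RANKL. *Krt13*, *Krt23*, *Krt77* and *Krt80* were also among the selected keratins. The keratins that carry most of the transcripts were not selected. *Krt8*, typical of cortical and simple epithelium, had 1817 and 2482 FPKM in WT and 2396 and 2408 FPKM in *Jmjd6*-/- RANKL libraries. *Krt5*, of basal and medullary epithelium, had 1006 and 1471 against 1887 and 1879 FPKM. In 18 of the 22 listed keratins with 1 FPKM both *Jmjd6*-/- RANKL libraries lay above both WT ones, which the rule required of 7. *Krt20* met the mirrored rule.

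**Figure D2:**
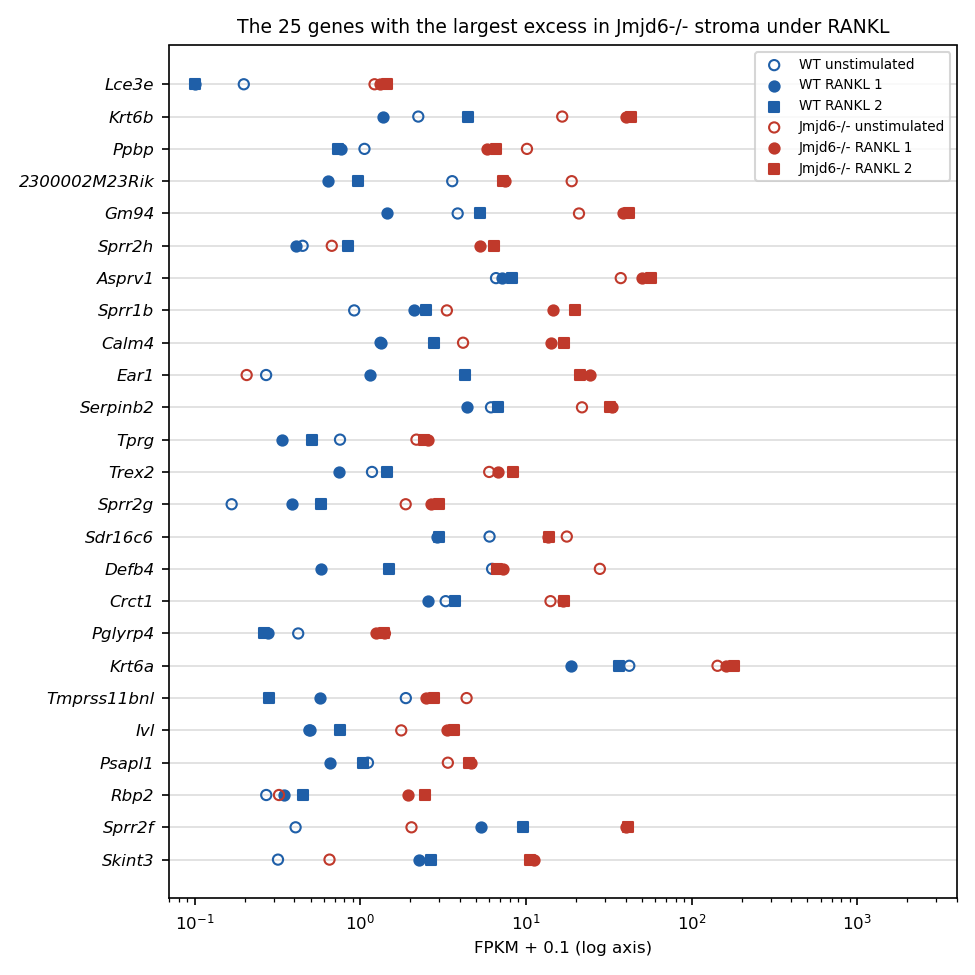
FPKM with 0.1 added (x axis, log scale) in each of the 6 libraries for the 25 genes (y axis) with the largest ratio of the smaller *Jmjd6*-/- to the larger WT RANKL value, blue for WT, red for *Jmjd6*-/-, open symbols without and filled symbols with RANKL. *Krt6b* runs from 1.28 to 43.0 FPKM, and *Ear1* has its open symbols at 0.170 and 0.106 FPKM before the addition.

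*Krtdap*, *Dmkn* and *Sbsn* encode secreted proteins of suprabasal keratinocytes and lie within 39.6 kb on chromosome 7. *Krtdap* had 53.5 and 122 FPKM in WT and 249 and 271 FPKM in *Jmjd6*-/- RANKL libraries, and 105 and 281 FPKM without RANKL. *Dmkn*, encoding dermokine, had 13.8 and 31.6 against 88.8 and 89.8 FPKM, and 23.7 against 89.1 FPKM without RANKL. *Sbsn*, encoding suprabasin, had 12.3 and 26.1 against 67.8 and 71.3 FPKM, and 44.6 against 127 FPKM without RANKL. In these genes the *Jmjd6*-/- libraries nearly coincided while the WT libraries differed from each other by more than 2-fold. *Ly6d*, a surface marker of keratinocytes, did likewise, with 26.8 and 63.7 against 143 and 135 FPKM.

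The highest level was that of *Perp*, encoding a desmosomal protein, with 291 and 313 FPKM in WT and 682 and 691 FPKM in *Jmjd6*-/- RANKL libraries, and 402 and 751 FPKM without RANKL. *Gjb6*, encoding connexin 30, and *Dsg3*, encoding desmoglein 3, were also selected, at means of 6.88 ± 0.552 and 3.23 ± 0.399 FPKM (SD, n = 2) in *Jmjd6*-/- stroma. Of the protease inhibitors, *Spink5*, which restrains skin kallikreins, had 4.28 and 5.25 against 20.7 and 20.5 FPKM, and *Serpinb2* had 4.28 and 6.66 against 32.9 and 32.1 FPKM. *Serpinb3c* had the largest fold among the unstimulated libraries, 15.4, with 0.127 FPKM in WT and 3.39 FPKM in *Jmjd6*-/- stroma. *Slpi*, another inhibitor, met the mirrored rule, with 1.94 and 4.15 against 0.832 and 0.660 FPKM. Of the 13 *Serpinb* entries with 1 FPKM, 5 were among the 119.

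The unstimulated libraries took no part in the choice and give a separate look at the genotypes, with 1 library each and hence no test. Of the 119 genes, 86 were at least 2-fold higher in *Jmjd6*-/- than in WT stroma without RANKL, whereas 263 of the 12606 genes with 1 FPKM in a *Jmjd6*-/- RANKL library were (2.09%). None of the 119 fell to 0.5-fold or below, as 245 of the 12606 genes did (1.94%). Higher values of any size were found in 114 genes, lower ones in 4. The median fold of the 119 genes without RANKL was 2.68, against 1.003 over the 12606 genes, and it ran from 0.564 to 15.4. All 3 *Jmjd6*-/- libraries lay above all 3 WT libraries in 91 of the 119 genes, a count that includes the libraries of the rule, and in 1289 of the 12606 genes (10.2%).

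By level of the genes, the 2-fold difference without RANKL was found in 31 of 40 genes with a mean of 3 to 10 FPKM in *Jmjd6*-/- RANKL stroma, 27 of 34 with 10 to 100 FPKM, and 5 of 6 above that. Of the 39 genes under 3 FPKM, 23 were 2-fold higher. Genes outside the 119 gave shares from 4.12% in the lowest to 0.512% in the highest of the same ranges. *Stmn2*, *Gsto1* and *Asprv1* are examples of a difference present before RANKL, at 48.3, 71.6 and 37.2 FPKM in *Jmjd6*-/- and 13.6, 26.0 and 6.49 FPKM in WT unstimulated stroma.

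**Figure D3:**
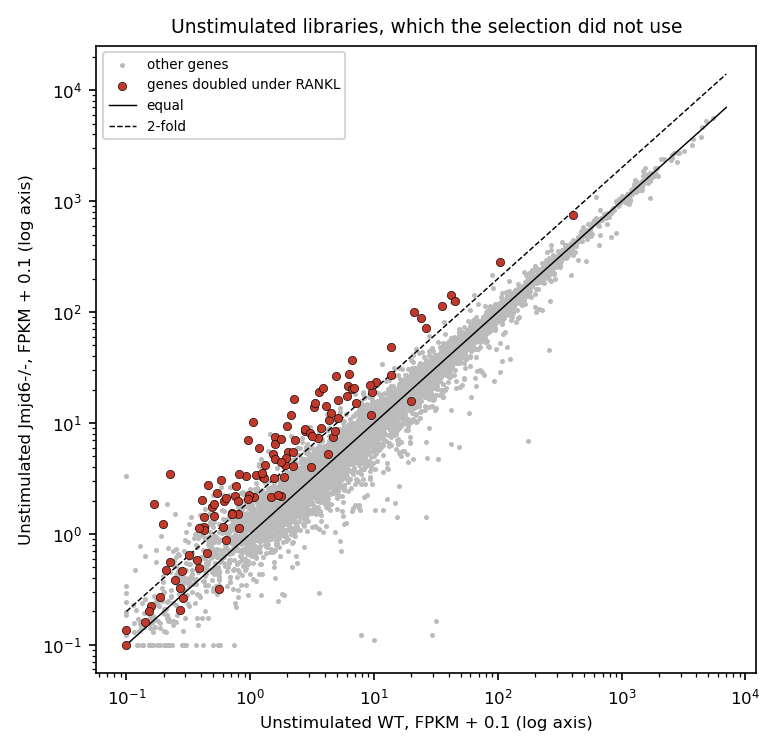
FPKM with 0.1 added in the unstimulated WT (x axis) and *Jmjd6*-/- (y axis) libraries, both on log scales, for the 119 genes (red) and other genes with 1 FPKM in a *Jmjd6*-/- RANKL library (grey), with lines at equal values and at 2-fold. Of the red points, 86 lie on or above the 2-fold line and 4 below the line of equal values.

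In 33 genes the unstimulated genotypes differed by less than 2-fold. Of these, 16 were below 1 FPKM in both unstimulated libraries. The other 17 reached 1 FPKM in at least 1 of them and included *Perp*, *Krt72* and *Spata25*. *Ear1*, encoding an eosinophil-associated ribonuclease, was close in the unstimulated libraries. It had 0.170 and 0.106 FPKM in unstimulated WT and *Jmjd6*-/- stroma, 1.04 and 4.2 FPKM in WT and 24.3 and 21.0 FPKM in *Jmjd6*-/- RANKL libraries. *Ear2* and *Ear3*, which share sequence with *Ear1*, are joined in an entry whose values belong to both genes. This entry had 0.463 and 0.218 FPKM without RANKL, and 2.36 and 12.3 against 51.5 and 43.2 FPKM with it. In both entries WT replicate 2 was the higher of the WT pair.

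The response to RANKL over both genotypes was fitted with limma on log2 values with a term for genotype. The rule read 4 of the 6 libraries of this fit and asked for 1 FPKM under RANKL only, so it favours rises among low genes. The counts, SE and adjusted p-values of the 119 genes, here and below, are therefore given as a description. At an adjusted p under 0.05, 24 rose and 14 fell (36 and 24 at an unadjusted p under 0.05), where 1675 (10.5%) and 654 (4.11%) of 15894 genes did. Of the 24 risers, 14 had been below 1 FPKM in both unstimulated libraries, and none of the 14 fallers had. Among the 99 genes with 1 FPKM in an unstimulated library, 10 rose and 14 fell. The counts depended on single libraries, with 41 risers without WT RANKL replicate 1 and 4 fallers when *Jmjd6*-/- RANKL replicate 1 or replicate 2 was left out.

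*Defb6*, encoding a beta-defensin, rose most. It went from 0.543 to 25 and 51.2 FPKM in WT and from 1.99 to 113 and 108 FPKM in *Jmjd6*-/- stroma, a log2 change of 5.76 (SE 0.26, adjusted p = 6.18e-05 from limma). *Defb4*, which lies beside it, fell instead, from 6.14 to 0.475 and 1.39 FPKM in WT and from 27.8 to 7.21 and 6.58 FPKM in *Jmjd6*-/- stroma (log2 change -2.38, SE 0.38, adjusted p = 0.00843 from limma). Both had higher values in *Jmjd6*-/- than in WT stroma with and without RANKL. Rises by limma were also found for *Sprr1a* (1.92, SE 0.24, adjusted p = 0.00358) and *Krt16* (2.15, SE 0.43, adjusted p = 0.0205), both above 1 FPKM in each unstimulated library. *Skint3*, of a family that selects skin T cells, met the floor under RANKL alone, with 0.218 and 0.551 FPKM in unstimulated WT and *Jmjd6*-/- stroma, and 2.17 and 2.56 against 11 and 10.5 FPKM with RANKL. Of the 8 *Skint* genes with 1 FPKM in a library, 1 was among the 119, a set that took 119 of all 13414 such genes. Without RANKL 5 of the 8 were at least 2-fold higher in *Jmjd6*-/- stroma, as were 313 of the 13414.

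Falls included *Sbsn* (-1.09, SE 0.28, adjusted p = 0.0466 from limma) and *2300002M23Rik* (-1.77, SE 0.25, adjusted p = 0.00557). *Krtdap*, *Dmkn*, *Krt6a* and *Perp* were called neither way, with log2 changes from -0.27 to -0.09. Of the 24 risers 13 were at least 2-fold higher in unstimulated *Jmjd6*-/- stroma, of the 14 fallers 12, and of the 81 genes called neither way 61.

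**Figure D4:**
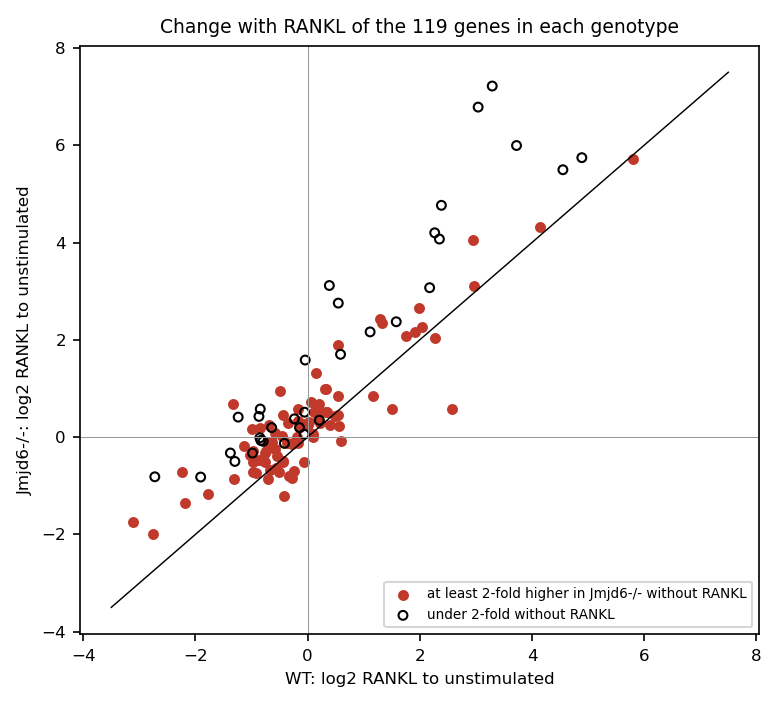
Log2 ratio of RANKL-stimulated to unstimulated stroma in WT (x axis) and *Jmjd6*-/- (y axis) for the 119 genes, with the line of equal change; red points were at least 2-fold higher in *Jmjd6*-/- stroma without RANKL. All open points lie above the line, which the rule requires of them, and the medians over the 119 genes are -0.17 in WT and 0.25 in *Jmjd6*-/-.

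Chemokines as a group went the other way. Of 31 chemokine genes with 1 FPKM in a library, 7 met the mirrored rule, as did 331 of all 13414 such genes. The median log2 ratio of the 31 under RANKL was -0.66. *Ppbp* and *Cxcl3* were the 2 chemokine genes among the 119, a set that took 119 of the 13414. Both encode attractants of neutrophils and lie within 19.6 kb on chromosome 5. *Ppbp* had 0.662 and 0.631 FPKM in WT and 5.72 and 6.45 FPKM in *Jmjd6*-/- RANKL libraries, and 0.959 and 10.03 FPKM without RANKL. *Cxcl3* had 3.32 and 4.31 against 13.4 and 14.8 FPKM, and 0.884 against 2.16 FPKM. Of the 4 platelet markers with 1 FPKM, *Ppbp* and the entry for *Gp1bb* and *Sept5* had both *Jmjd6*-/- RANKL libraries above both WT ones, and 3 of the 4 were higher in unstimulated *Jmjd6*-/- stroma. *Pf4*, another chemokine of platelets, had the opposite order, with 5.12 and 14.0 FPKM in WT and 3.66 and 2.77 FPKM in *Jmjd6*-/- RANKL libraries, and the platelet gene *Gp9* is listed at 0 in all 3 *Jmjd6*-/- libraries. *Ltf*, encoding lactoferrin, was selected at 0.568 and 0.906 against 4.76 and 3.89 FPKM, while *Ngp* and *Camp*, of neutrophil granules, were at or below 0.318 FPKM in *Jmjd6*-/- stroma. Of the 6 neutrophil markers with 1 FPKM, *Ltf* and *Mmp8* had both *Jmjd6*-/- RANKL libraries above both WT ones and the other 4 had both below.

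Of the 119 genes, 74 were on no list, and 3 of them are given here after their values were seen. *Elovl4*, which builds the very long fatty acids of skin ceramides, had 6.00 and 5.95 FPKM in WT and 16.3 and 16.1 FPKM in *Jmjd6*-/- RANKL libraries, and 10.2 and 23.1 FPKM without RANKL. *Sptlc3*, of the enzyme that starts ceramide synthesis, had 1.57 and 1.99 against 4.80 and 4.33 FPKM, and 0.288 against 1.04 FPKM without RANKL. *Stmn2*, encoding a microtubule regulator best known from neurons, had 19.5 and 20.4 against 67.5 and 64.3 FPKM.

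The genes lay on 20 chromosomes, with 22 of them on chromosome 3. Another of the 119 was within 100 kb of 38 genes (31.9%), whereas 241 of 12487 other expressed genes (1.93%) had one of the 119 that near. There were 5 groups of at least 3, namely the *Sprr* and *Ivl* genes (10 genes over 257 kb of chromosome 3, 92316705 to 92573735), the *Lce3* genes with *Crct1* (chromosome 3), keratins on chromosome 15, the *Krtdap* group on chromosome 7, and the *Defb* genes on chromosome 8. Genes of these groups are duplicated copies in part. The nearest of the 119 to the deleted gene on chromosome 11 was *Krt16*, 16.6 Mb away.

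The epidermal differentiation complex of chromosome 3 was taken from *Lor* to *Tchhl1* (92080271 to 93471980) and held 50 entries. Its bounds are the first and last genes of the cornified envelope list there, so its counts overlap with those of the list. Of the 26 genes of this stretch with 1 FPKM in a library, 14 were among the 119 and none met the mirrored rule. Over all 13414 such genes 119 and 331 did, so none of 26 is close to the latter share. In 24 of the 26 both *Jmjd6*-/- RANKL libraries lay above both WT ones, which the rule required of the 14. Without RANKL 22 of the 26 were higher in *Jmjd6*-/- stroma. Over all 13414 genes with 1 FPKM in a library these counts were 3537 with and 6699 without RANKL. The median log2 ratio was 2.45 with RANKL, where the rule chose 14 of the 26 by these values, and 1.49 without RANKL. *Sprr2i* and *Lce3b* were the genes below 0 under RANKL, both near 1 FPKM at most.

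**Figure D5:**
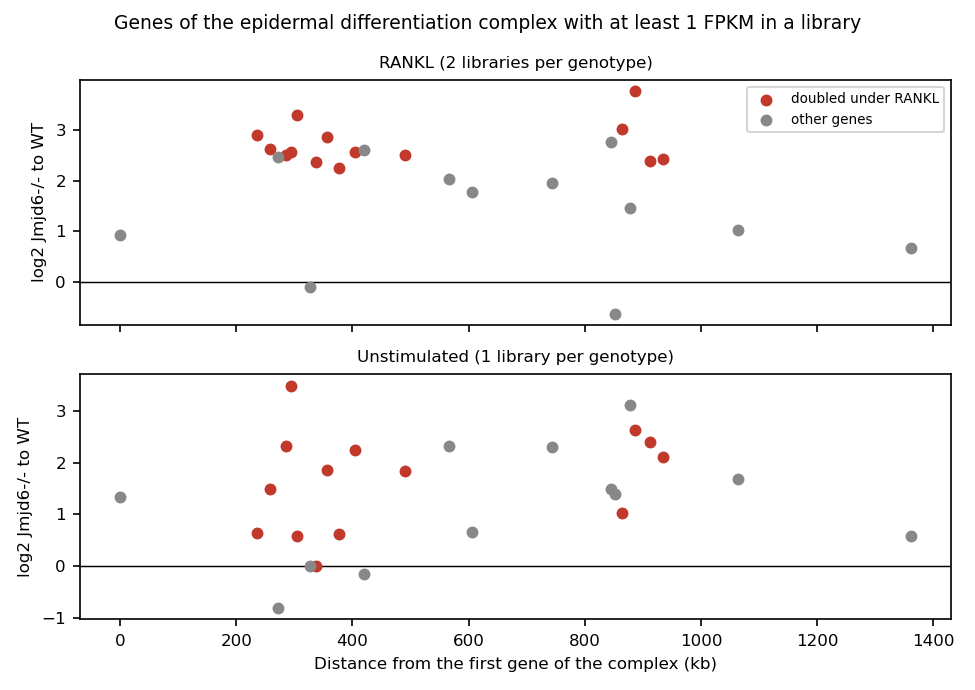
Log2 ratio of *Jmjd6*-/- to WT (y axis) for the 26 genes of the epidermal differentiation complex with 1 FPKM in a library, by distance from the first gene in kb (x axis), with RANKL (top, mean of 2 libraries per genotype) and without (bottom, 1 library per genotype), red for genes among the 119. With RANKL 24 of the 26 points lie above 0, which the rule requires of the red ones.

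The WT RANKL libraries were not alike in these genes. Replicate 2 was above replicate 1 in 95 of the 119 genes, by a median fold of 1.44, while over 12606 genes replicate 2 was higher in 5774 (45.8%). The difference reached 2-fold in 32 genes in this direction and in 1 in the other. Summed over the cornified envelope list, WT stroma had 278 FPKM without RANKL and 198 and 410 FPKM with it, and *Jmjd6*-/- stroma 884, 1194 and 1300 FPKM. The median fold of the 119 genes was 2.98 against WT replicate 2 alone and 4.44 against replicate 1 alone. *Krt6b* was 9.29-fold and *Ear1* 5.27-fold higher against replicate 2 alone, and 30.1-fold and 19.8-fold against replicate 1 alone. The fold also moved by over 1.5 times with either WT library for *Krt16*, *Krt77*, *Gjb6*, *Ly6d*, *Dmkn*, *Krtdap*, *Defb4*, *Sprr2b* and the entry for *Ear2* and *Ear3*, and for 19 of the 73 named genes in all.

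Markers of some other cell types also differed in level between the genotypes. All 13 mesenchyme markers were lower in *Jmjd6*-/- stroma, with sums of 806 to 879 FPKM in the 3 WT and 391 to 519 FPKM in the 3 *Jmjd6*-/- libraries, and none was at 0. Endothelial markers summed to 18.1 to 35.3 FPKM and 7.82 to 14.2 FPKM, and all 25 interferon response genes were lower. Of all 13414 genes with 1 FPKM in a library, 7435 were higher in *Jmjd6*-/- stroma with RANKL and 6699 without it. Sums of the mTEC list, 3487 to 4456 FPKM in WT and 3885 to 4614 FPKM in *Jmjd6*-/- libraries, overlapped. So did those of the cortical list, the macrophage list, and the list of pericytes and smooth muscle. Their part in the higher values of the 119 genes was not tested. In whole stroma, more cells of a type and more RNA per cell cannot be told apart.

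At the threshold, *Irx2*, *Hsd17b2* and *BC024139,Eppk1* were just inside, with ratios of 2.02, 2.02 and 2.03 between the smaller *Jmjd6*-/- and the larger WT value. *Tagln*, *Rdh12* and *Slc34a2* were just outside, with 1.998, 1.994 and 1.993. Most genes were low, with a mean in *Jmjd6*-/- RANKL stroma of 1 to 10 FPKM in 79 genes and above 100 FPKM in 6. The median of the estimated fragments behind the smaller *Jmjd6*-/- value was 244 over the 115 genes with a known transcript length, and only *Defb14*, with a short annotated transcript, fell under 10.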

How the data were processed

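The authors sequenced poly-A RNA of 6 libraries, mapped it to mm10 with TopHat2 2.0.10 and deposited FPKM per gene from Cufflinks 2.1.1, per the labels and the study's methods. Values were used unscaled, and their totals ran from 501418 to 564985. No step that keeps strand is described for the libraries, so overlapping genes on opposite strands are uncertain. Groups came from titles and the stimulation label. The genes and all gene lists were chosen with earlier results of these data known. Depth was estimated from steps between FPKM values under 0.15, using transcript length less 150 bases.

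RANKL effects were fitted with limma 3.58.1 (R 4.3.3) on log2(FPKM + 0.1), with genotype as a term and the prior variance following the mean. The 15894 genes averaging 0.1 FPKM or more were tested, and p-values were adjusted by Benjamini-Hochberg. The fit was tested on simulated data. Genotype under RANKL was not tested, nor were the unstimulated libraries. Python 3.11.15 did the rest.

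Named genes are the 25 with the largest ratio, the 10 highest, those on lists, those in groups of at least 3 within 100 kb, 3 on each side of the threshold, and the 10 largest and 10 smallest unstimulated ratios. Genes on no list named for their function, and non-members named for contrast, were chosen after their values were seen. Alternatives changed the fold, the floor, the added constant, the scaling, the filter, the model and the libraries used.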

Additional observations from a re-analysis of the deposited data

Results flagged for a closer look

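In 12 of the named genes every RANKL library of 1 genotype lay on one side of its unstimulated library and every RANKL library of the other genotype on the opposite side. The difference between these responses was not tested, because each genotype had 1 unstimulated library. The values are the log2 change with RANKL in *Jmjd6*-/- stroma less that in WT stroma. The rule favours positive values, since it asks for high *Jmjd6*-/- and low WT levels under RANKL. They were 2.00 for *Lce3c*, 1.65 for *Spata25*, 1.42 for *Nat8l*, 1.29 for *Adrb1*, 1.16 for *Lce3e*, 1.04 for *Tprg*, 0.94 for *Krt6a*, 0.88 for *Psapl1*, 0.67 for *Serpinb5*, 0.49 for *Spink5* and 0.34 for *Spns2*, with a rise in *Jmjd6*-/- and a fall in WT stroma. *Krt13* went the other way, at -0.68, with a change of -0.09 in *Jmjd6*-/- and 0.59 in WT stroma. Some of these changes were small or rested on few fragments. The fall of *Lce3e* in WT stroma went from 0.098 FPKM, an estimated 1.39 fragments, to 0. The rise of *Spink5* in *Jmjd6*-/- stroma was 0.02 on the log2 scale. Over all 119 genes, 15 had the first order and 1 the second, and the same count over all expressed genes was not made.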

How the results depend on the processing

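The number of selected genes followed the rule's limits. It was 269 with a 1.5-fold and 53 with a 3-fold limit and 209 with a ratio of means. Leaving out 1 RANKL library gave 151 to 240 genes, with 235 without WT replicate 1 and 240 without WT replicate 2. The floor (147 at 0.5 FPKM and 97 at 2 FPKM) and scaling (128 with equal totals and 113 by the median ratio) moved it less. Of the 240 genes chosen against WT replicate 1 alone, a check added after seeing the data, 142 (59.2%) were at least 2-fold higher in unstimulated *Jmjd6*-/- stroma, compared with 72.3% of the 119. The count of 86 genes was 58 with 1 added to FPKM and 82 to 89 otherwise. With RANKL, 24 genes rose and 14 fell. Without the filter on low values, when 22513 genes were tested, 12 rose and 3 fell. Genes that fell numbered 9 without the mean-variance trend and 9 with scaling by the median ratio. With 1 RANKL library left out 20 to 41 rose and 4 to 22 fell, with 41 rises without WT replicate 1, 22 falls without WT replicate 2, and 4 falls without *Jmjd6*-/- replicate 1 or replicate 2. The cause of these shifts was not tested. With the replicate number as a block 25 rose and 13 fell. Deviations of same-numbered libraries from their group means had a correlation of -0.08 over genes (2 pairs). With 2 RANKL libraries per genotype this cannot decide whether the numbers pair them. Precision is limited by 2 libraries per genotype with RANKL and 1 without, and for genes near 1 FPKM by few fragments.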
